A study of Mus musculus with 6 samples.

Results

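The genes described here are 10 genes of the circadian clock, chosen by name: Per1, Per2, Per3, Cry1, Cry2, Arntl, Clock, Nr1d1, Nr1d2 and Dbp. All 10 are among the 24935 genes of the expression table, and all 10 passed the filter on low values, a mean of at least 10 normalized counts over the libraries. RNA was sequenced from the left hippocampus of C57BL/6 mice at postnatal day 14 (P14). The air group was 3 pups kept in room air with their dams, and the hyperoxia group was 3 pups kept with their dams in a normobaric chamber at 85% oxygen from P2 to P14. No group carried a transgene or a deletion, and the tissue was the whole left hippocampus, so neurons, glia and vessels were read together. Each library is a separate animal by its label, but the sources used here give neither the litter and sex of each pup nor the clock hour of tissue collection. Which libraries are air and which hyperoxia is taken from the column names of the table. Those names were not checked against any other source, and every direction below would reverse if they were exchanged. The published account of the series is itself not uniform in the sign of some RNAs, Arc and Egr1 among them. This was not resolved, so lower and higher below refer to the libraries as named. Every animal was taken at a single age with no series of hours, so a difference in the hour of collection and the exposure cannot be told apart. In bulk tissue, fewer cells of a type and less RNA per cell cannot be told apart either.

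The mammalian clock is a transcriptional loop that runs in nearly every cell. CLOCK and ARNTL (also called BMAL1) bind E-boxes as a dimer and drive the Per and Cry genes, whose proteins return to the nucleus and inhibit that dimer. Another loop joins it: NR1D1 and NR1D2 (REV-ERB alpha and beta) repress Arntl through ROR response elements, at which the ROR receptors activate it. DBP is a further output of the dimer and acts at D-boxes. In tissues with a running clock, Arntl RNA peaks at about the opposite phase to Per, Nr1d1 and Dbp RNA. In the hippocampus, Per1 and Per2 also respond to neuronal activity, and Per1 is a target of the glucocorticoid receptor.

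The 6 libraries held 30384052 to 38746972 reads on genes, with the lowest total in hyperoxia library 2 and the highest in air library 1, and the median tested gene had 449 to 576 reads a library. Hippocampal principal neuron markers summed to 59363 to 63087 normalized counts in the air libraries and 38932 to 57481 in the hyperoxia libraries, and none of the 10 markers was at 0 in any library. Values below are normalized counts (reads divided by a size factor for each library). Fold changes are differences of mean log2(normalized count + 1), hyperoxia minus air, with the standard error (SE) and the Benjamini-Hochberg adjusted p of limma over the 17778 genes tested, and a gene was called at an adjusted p under 0.05. Over all tested genes the median fold change was -0.01 and the median absolute fold change 0.25, both on the log2 scale.

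Among the 10 clock genes, 6 were called, against 30.5% of all genes tested. Arntl, Per1 and Per2 were lower in the libraries named hyperoxia, against 15.6% of all genes called lower. Clock, Cry1 and Nr1d2 were higher, against 14.9% of all genes called higher. Per3, Cry2, Nr1d1 and Dbp did not pass the test. The air and hyperoxia libraries did not overlap for 7 of the 10 genes, the 6 called genes and Dbp, where 46.1% of all tested genes did not overlap. The median fold change of the 10 genes was -0.14 on the log2 scale, with genes of the same loop on both sides of 0.

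**Figure D1:**
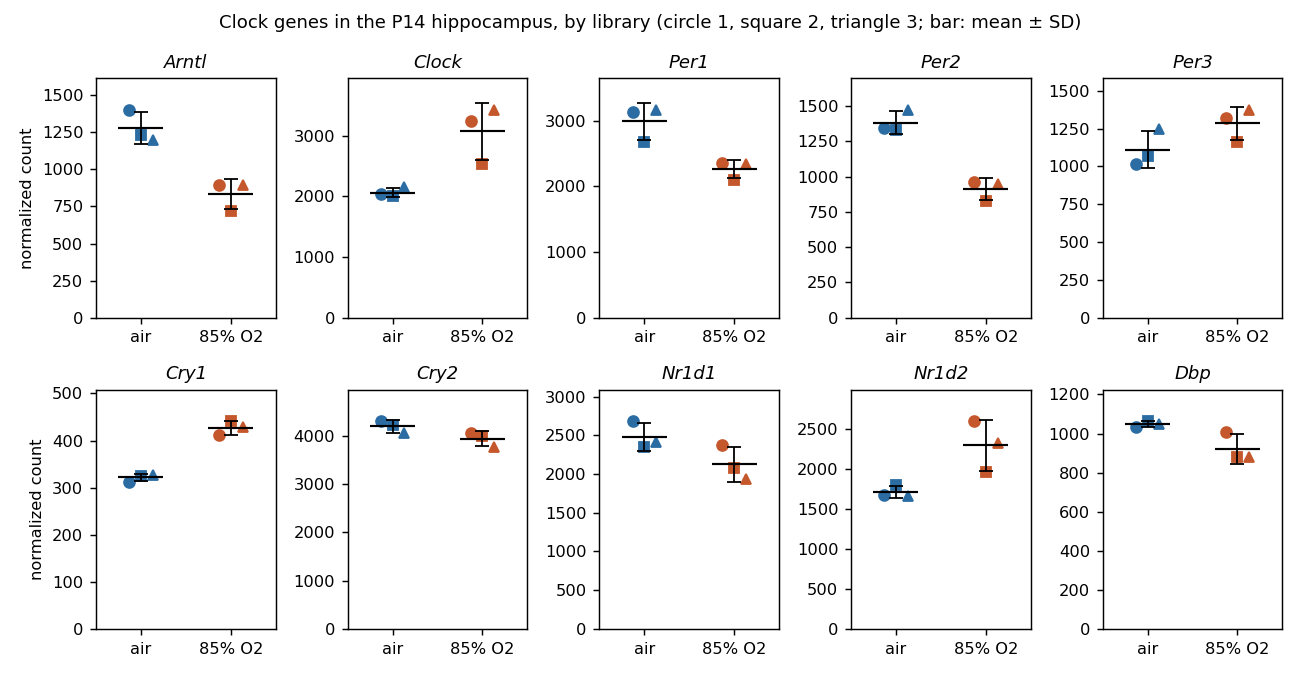
Normalized counts of the 10 clock genes in each library (vertical axes start at 0, 1 panel a gene), with air libraries in blue, hyperoxia libraries in red and bars for the mean ± SD of 3 libraries. Arntl, Per1 and Per2 sit lower in every hyperoxia library than in any air library, Clock, Cry1 and Nr1d2 sit higher, and Per3, Cry2 and Nr1d1 overlap.

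Arntl and Clock, the 2 subunits of the activator dimer, moved in opposite directions. Arntl (ENSMUSG00000055116.8, GENCODE M21 on GRCm38, chr7:113207465-113314126, plus strand) was at 1404, 1234 and 1200.1 normalized counts in the air libraries and at 893, 718 and 892 in the hyperoxia libraries. The lowest air library exceeded the highest hyperoxia library by a wide gap. The mean fell from 1279.5 ± 109 to 834 ± 101 (SD, n = 3 each), a log2 fold change of -0.62 (SE 0.11, 95% interval -0.86 to -0.38, limma adjusted p = 0.0030). Clock (ENSMUSG00000029238.11, chr5:76209868-76304792, minus strand) was at 2031, 2001 and 2149.8 in air and at 3242, 2538 and 3430.3 in hyperoxia. All 3 hyperoxia libraries were above the air libraries, and they spread more, with hyperoxia library 2 nearest to air. The mean rose from 2061 ± 78.8 to 3070.3 ± 470.2 (SD, n = 3 each), a log2 fold change of 0.56 (SE 0.11, interval 0.32 to 0.81, limma adjusted p = 0.0049). The size of the Clock difference changed with a correction for transcript length and base composition. It was 0.21 (limma adjusted p = 0.018) once each library's trend of log2 values with these properties over all genes was taken out.

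Sequence around the Arntl start is shown because ROR response elements there are where the REV-ERB loop meets the main one. The windows searched ran from 250 bases before to 50 bases after each start in RefSeq (GRCm38.p6), and Arntl has 2 starts in that table. The core TAGGTCA was found 31 bases after the second start, and the variant TAGGTTA 6 bases before the same start and 41 bases after the first. Both lie in an annotated exon on the plus strand, and capitals mark the match:
Arntl, variant, chr7:113207498-113207517: cggaaagTAGGTTAgtggtg
Arntl, core, chr7:113207534-113207553: cagaaagTAGGTCAgggacg
On either strand, TAGGTCA was in 2.61% of the 32851 windows of all genes and TAGGTTA in 1.44%, and Arntl was the only one of the 9 clock genes with a window to hold either. A match is a run of letters, not a measured binding site.

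The 3 Period genes, whose proteins inhibit the dimer, did not move as a group. Per1 (ENSMUSG00000020893.17, chr11:69095217-69109960, plus strand) was at 3128, 2666 and 3166 in air and at 2346, 2100.1 and 2332 in hyperoxia. Every air library was above every hyperoxia library, and the log2 fold change was -0.40 (SE 0.09, interval -0.60 to -0.20, limma adjusted p = 0.0086). Per2 (ENSMUSG00000055866.9, chr1:91415982-91459324, minus strand) was at 1342, 1331 and 1475 in air and at 963, 825 and 948 in hyperoxia. These groups were also apart, and its log2 fold change of -0.60 (SE 0.09, interval -0.80 to -0.41, limma adjusted p = 0.0016) had the lowest adjusted p of the 10 genes. Per3 (ENSMUSG00000028957.12, chr4:151003652-151044665, minus strand) was at 1018, 1068 and 1248 in air and at 1319, 1164 and 1376 in hyperoxia. Its groups overlapped, with hyperoxia library 2 below air library 3, and the log2 fold change of 0.21 (SE 0.10, interval -0.01 to 0.44, limma adjusted p = 0.14) did not pass the test. Without hyperoxia library 2, Per3 had a log2 fold change of 0.28 and passed it (adjusted p = 0.026). Per3 RNA is a clock output in many tissues, but the loop runs without its protein.

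Of the windows for Per1 and Per3 (Per2 has no entry in the promoter table), Per1 held an E-box, CACGTG, 166 bases before its start, and Per3 held the D-box TTATGTAA 205 and 158 bases before its start. They are shown because E-boxes are read by CLOCK and ARNTL and D-boxes by DBP and its relatives. Capitals mark the motifs, both lie outside annotated exons, and each is written along its gene's strand:
Per1, plus strand, chr11:69098753-69098818: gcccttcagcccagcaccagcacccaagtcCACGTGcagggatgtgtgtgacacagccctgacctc
Per3, minus strand, chr4:151044786-151044900: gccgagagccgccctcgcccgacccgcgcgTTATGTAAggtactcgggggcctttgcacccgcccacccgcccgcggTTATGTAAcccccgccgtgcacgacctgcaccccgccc
CACGTG was in 7.15% of all windows and a D-box, TTATGTAA or TTACGTAA on either strand, in 1.06%. The cyclic AMP response element TGACGTCA, through which neuronal activity can act, was in 1.79% of all windows and in none of the 9 clock genes' windows. Only this full spelling was searched, so shorter forms and sites outside the windows are not covered.

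Cry1 and Cry2 encode the cryptochromes, the partners of the PER proteins and the stronger repressors of the dimer. Cry1 (ENSMUSG00000020038.10, chr10:85131700-85185064, minus strand) was at 313, 326 and 326 in air and at 411, 442 and 429 in hyperoxia. Both groups were tight and far apart, and the mean rose from 322 ± 7.74 to 427 ± 15.3 (SD, n = 3 each), a log2 fold change of 0.41 (SE 0.09, interval 0.21 to 0.61, limma adjusted p = 0.0085). Cry2 (ENSMUSG00000068742.11, chr2:92403646-92434043, minus strand) was at 4305, 4219 and 4048 in air and at 4054, 3997 and 3757 in hyperoxia. These values overlapped, and the log2 fold change of -0.09 (SE 0.07, interval -0.24 to 0.06, limma adjusted p = 0.33) did not pass the test. An antisense neighbour of Cry2, D930015M05Rik, shares 4.7% of its exon bases and was at 23.5 to 43.4 normalized counts over the 6 libraries, far under Cry2 itself.

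The Cry1 window held an E-box 60 bases before the start and, 79 bases before it, the related E′-box (CACGTT, written here as its reverse complement). It is shown because it was the only window of the 9 genes with both, and it lies outside annotated exons:
Cry1, minus strand, chr10:85185079-85185163: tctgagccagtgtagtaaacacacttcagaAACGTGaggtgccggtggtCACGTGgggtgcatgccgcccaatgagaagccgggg
The E′-box was in 4.68% of all windows and also in those of Cry2, 166 bases before its start, and Nr1d1, 28 bases before its start. The 2 genes with an E-box in these windows, Per1 and Cry1, were called in opposite directions. Sites outside the windows were not searched, and Per2 had no window.

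Nr1d1 and Nr1d2 encode the nuclear receptors that repress Arntl. Nr1d1 (ENSMUSG00000020889.11, chr11:98767932-98775333, minus strand) was at 2686, 2348 and 2415 in air and at 2376, 2082 and 1930.4 in hyperoxia. Hyperoxia library 1 lay above air library 2, and the log2 fold change of -0.22 (SE 0.09, interval -0.43 to -0.02, limma adjusted p = 0.095) did not pass the test over all genes. Nr1d2 (ENSMUSG00000021775.10, chr14:18204054-18239127, minus strand) was at 1671, 1794 and 1657 in air and at 2594, 1953 and 2319 in hyperoxia. The groups were apart, although hyperoxia library 2 was close to air library 2, and the log2 fold change was 0.41 (SE 0.10, interval 0.18 to 0.64, limma adjusted p = 0.014). The Nr1d2 call was the least stable of the 6. It was lost without hyperoxia library 1 (log2 fold change 0.32, adjusted p = 0.057), without air library 1 (adjusted p = 0.065) and without air library 3 (adjusted p = 0.058), and it was 0.26 (adjusted p = 0.039) after correction for length and base composition. Nr1d1 shares 263 of its 3077 exon bases with Thra, a thyroid hormone receptor gene on the other strand. Thra was at 35759 ± 564 in air and 31424 ± 2825 in hyperoxia, a log2 fold change of -0.19 (adjusted p = 0.12). The libraries keep strand, but the sources used here do not state the strand setting of the counting, so a share of Thra reads in the Nr1d1 count was not tested.

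Dbp, the D-box activator that is among the most strongly rhythmic outputs of the dimer, (ENSMUSG00000059824.12, chr7:45705088-45710203, plus strand) was at 1034, 1064 and 1047 in air and at 1009, 879 and 878 in hyperoxia. All hyperoxia libraries were below the air libraries, although library 1 only just. The log2 fold change of -0.19 (SE 0.08, interval -0.37 to -0.004, limma adjusted p = 0.11) did not pass the test over all genes. Dbp shares 539 of its 2993 exon bases with Sphk2, a sphingosine kinase gene on the other strand, which fell (log2 fold change -0.47, adjusted p = 0.0059) from 1261 ± 45.3 to 914 ± 105 (SD, n = 3 each). The part of Sphk2 reads in the Dbp count was not tested.

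Ratios between clock genes within a library do not depend on how the library was scaled, and they are given as a description without a test. The log2 ratio of Arntl to Clock was -0.53, -0.70 and -0.84 in the air libraries and -1.86, -1.82 and -1.94 in the hyperoxia libraries, so that the means differed by -1.19, and by -0.87 after the length and base composition correction. Within the Period family, Per1 over Per3 went from 1.62, 1.32 and 1.34 to 0.83, 0.85 and 0.76, and Per2 over Per3 from 0.40, 0.32 and 0.24 to -0.45, -0.50 and -0.54. Per2 RNA was thus above Per3 RNA in every air library and below it in every hyperoxia library, counted in reads and not per length. The log2 ratio of Cry1 to Cry2 went from -3.78, -3.70 and -3.63 to -3.30, -3.18 and -3.13. For Nr1d1 over Nr1d2 it went from 0.68, 0.39 and 0.54 to -0.13, 0.09 and -0.26, and the difference of -0.64 was -0.35 after the correction. In each of these paralog pairs the air and hyperoxia libraries were apart. Among single tested genes 46.1% did not overlap, and the share for other gene pairs was not counted.

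Pairs that peak at about opposite phases of a running clock were compared in the same way. Arntl and Per2 fell by nearly the same amount: their log2 ratio was 0.07, -0.11 and -0.30 in air and -0.11, -0.20 and -0.09 in hyperoxia, with overlapping groups and a difference of means of -0.02. Arntl over Per1 also overlapped, at -1.16, -1.11 and -1.40 in air and -1.39, -1.55 and -1.39 in hyperoxia. Arntl over Nr1d1 and Arntl over Dbp did not overlap, with differences of means of -0.40 and -0.43. The differences were larger for Arntl over Per3, at -0.83, and Arntl over Nr1d2, at -1.04, and neither pair overlapped.

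**Figure D2:**
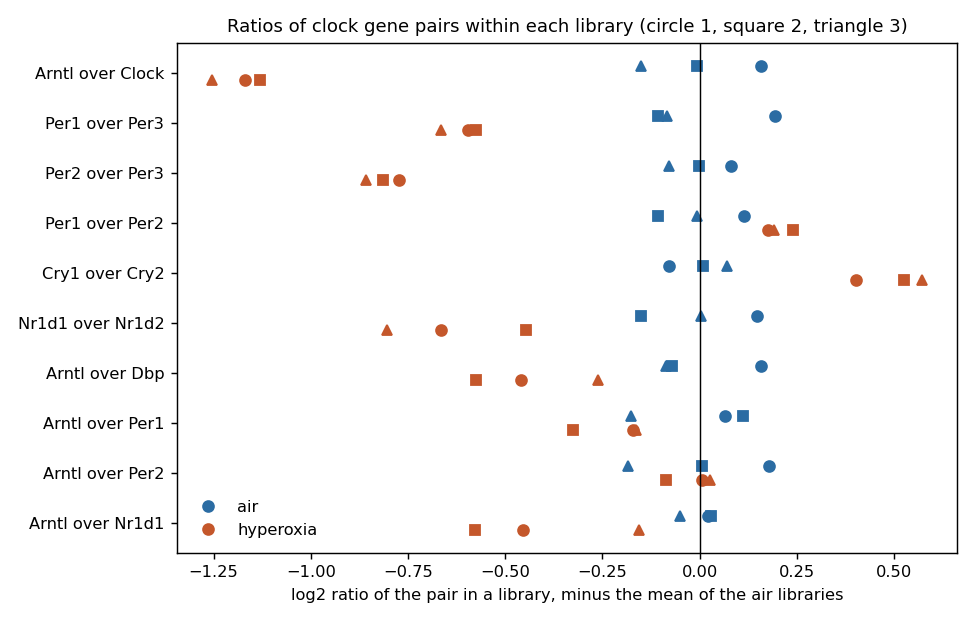
Log2 ratios of 10 clock gene pairs in each library, shown as the difference from the mean of the 3 air libraries (horizontal axis, log2 units; blue air, red hyperoxia). Arntl over Clock lies furthest from air at a mean difference of -1.19, and Arntl over Per2 stays at air with a mean difference of -0.02.

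Levels between genes were compared per kilobase of exon (union of annotated exons, normalized counts per kilobase). This length exceeds the longest transcript unequally, at 7523 against 3995 bases for Arntl and 3340 against 3026 for Cry1. The order below depends on that choice, and no other length was tried. In air the order was Nr1d1 at 807 ± 58.2, Cry2 at 663 ± 20.7, Per1 at 530.4 ± 49.5, Dbp at 350.3 ± 5.09, Nr1d2 at 316 ± 14.0, Per2 at 236 ± 13.7, Arntl at 170.1 ± 14.5, Clock at 150.1 ± 5.74, Per3 at 116 ± 12.6 and Cry1 at 96.3 ± 2.32 (SD, n = 3). Each pair of neighbours in that order was apart in the 3 air libraries. In hyperoxia Nr1d1 at 692 ± 73.6 and Cry2 at 623 (594 to 641) still led but overlapped, and Nr1d2 at 423 ± 59.5 and Per1 at 401 ± 24.5 overlapped as well. Clock, at 224 ± 34.3, stood in rank 6 instead of 8. Arntl, at 111 ± 13.4, stood in rank 10 instead of 7, the lowest of the 10 genes by this length. Per2 overlapped Per3, and Per3 overlapped Cry1.

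The directions of the 6 called genes were the same in all 16 alternatives of scaling, filter, pseudocount, test, correction and libraries left out. Arntl, Clock, Per1, Per2 and Cry1 passed the test in all 16, Nr1d2 in 12, Per3 in 1, and Cry2, Nr1d1 and Dbp in none. The correction for length and base composition bears on the 3 higher genes unequally. Over all genes the median fold change ran from -0.14 among the shortest transcripts to 0.16 among the longest, and from 0.12 at the lowest GC content to -0.11 at the highest (genes cut into 4 groups of nearly equal size by each property). Clock, whose longest transcript has 9744 bases at 40.9% GC, and Nr1d2, with 4663 bases at 41.8% GC, are long and poor in GC. Cry1, with 3026 bases at 51.6% GC, rose by 0.46 with the correction and by 0.41 without it. Of the lower genes, Arntl was at -0.66 with the correction, Per2 at -0.66 and Per1 at -0.38. The genes not called moved toward 0: Dbp from -0.19 to -0.03, Nr1d1 from -0.22 to -0.09, Per3 from 0.21 to 0.11 and Cry2 from -0.09 to -0.03.

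**Figure D3:**
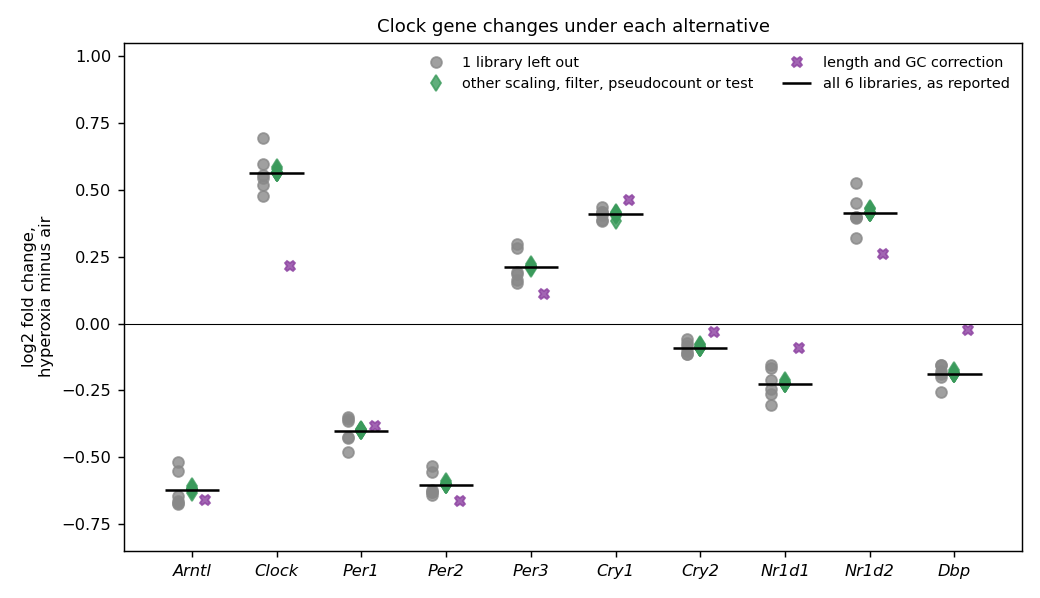
Log2 fold change (vertical axis, hyperoxia minus air) of each clock gene with all 6 libraries (black line), with 1 library left out (grey), under another scaling, filter, pseudocount or test (green) and with the length and GC correction (purple). No value crosses 0, and Clock moves the most, from 0.56 to 0.21 with the correction.

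Hyperoxia library 2 had the lowest value of its group for 6 of the 10 clock genes, among them Arntl, Clock, Per1, Per2 and Nr1d2, against 39.3% of all tested genes. Hyperoxia library 1 had the highest for 7 of 10, against 22.7% of all tested genes. In the air group no library was lowest for more than 4 or highest for more than 5. Hyperoxia library 2 was thus lowest of its group for Arntl, Per1 and Per2, called lower, and for Clock and Nr1d2, called higher. For Cry1, also called higher, it was the highest.

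Outside the 10 genes, 22 further clock genes were listed by role, and 11 of them were called, against 30.5% of all genes tested, 9 higher and 2 lower, with a median fold change of 0.10. This count is less stable than that of the 10 genes, since it was 4 without air library 1, 4 without air library 2 and 5 without hyperoxia library 1. The correction for length and base composition gave 7 called (Npas2, Rora, Tef and Csnk1d higher, Bhlhe41, Usp2 and Noct lower). Among the activators, Npas2, which can replace CLOCK in the forebrain, was at 981, 871 and 946 in air and at 1695, 1412 and 1018 in hyperoxia. The groups were apart, but hyperoxia library 3 was close to air, and the log2 fold change was 0.53 (SE 0.16, limma adjusted p = 0.031). It was called in 11 of the 16 alternatives, with adjusted p up to 0.11. Arntl2, a paralog of Arntl, was at 0.08 on the log2 scale (adjusted p = 0.62).

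Rora and Rorb encode ROR receptors, which activate Arntl at the sites that NR1D1 and NR1D2 repress, and both were called higher. Rora was at 723, 778 and 775 in air and at 1473, 1407 and 1298 in hyperoxia, and its log2 fold change was 0.87 (SE 0.08, limma adjusted p = 3.1e-04), the largest of the 22 genes. The 3 hyperoxia libraries were close to each other and well above air, and Rora passed the test in all 16 alternatives, with 0.51 after the length and base composition correction. Rorb was at 721, 762 and 855 in air and at 1059.9, 1227 and 1027 in hyperoxia, a log2 fold change of 0.50 (SE 0.10, limma adjusted p = 0.0054) that was 0.17 (adjusted p = 0.48) with the correction.

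Both genes are also expressed in the thalamus, so markers of that neighbouring tissue are given beside them. Of 7 thalamus markers, 3 were called, all higher, against 14.9% of all genes called higher: Slc17a6 by 1.72, Ramp3 by 1.36 and Tcf7l2 by 0.76 on the log2 scale. The Tcf7l2 groups overlapped, with hyperoxia library 1 at 514 and air library 3 at 528. Ramp3 was at 347, 453 and 141 in hyperoxia, the last close to air library 1 at 126. The 4 not called were Synpo2 at 0.52, Lef1 at 0.31, Plekhg1 at 0.19 and Prkcd at -0.21. The summed level of the 7 markers was 4708 to 4859 in the air libraries and 6286 to 7730 in the hyperoxia libraries. The highest sum was in hyperoxia library 2. Within that sum, Slc17a6 went from a mean of 593 in air to 1966 in hyperoxia. Within the hyperoxia group Rora was highest in library 1 and Rorb in library 2, but an order among 3 libraries cannot show where their RNA came from. The part of these cells in the Rora and Rorb values was not tested.

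Of the repressors outside the 10 genes, Bhlhe41 (DEC2), which competes for E-boxes, was at 643, 656 and 633 in air and at 522, 511 and 527 in hyperoxia, a log2 fold change of -0.31 (SE 0.08, limma adjusted p = 0.016). Its paralog Bhlhe40 was at -0.15 (adjusted p = 0.12) and Ciart, which inhibits the dimer, at -0.17 (adjusted p = 0.29). The D-box activators that are related to Dbp were both called higher, each in 12 of the 16 alternatives: Hlf at 2481, 2454 and 2792 in air and at 5224, 3733 and 3229 in hyperoxia (log2 fold change 0.63, limma adjusted p = 0.013), and Tef at 6462, 6601 and 7236 in air and 8517, 7629.6 and 7881 in hyperoxia (0.24, limma adjusted p = 0.037). With the length and base composition correction Hlf was at 0.47 and not called (adjusted p = 0.067). Dbp was at -0.19, and Nfil3, the repressor at D-boxes, was at -0.20 (adjusted p = 0.16).

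Among the enzymes that modify clock proteins, Csnk1d, a casein kinase that phosphorylates PER, rose by 0.21 (limma adjusted p = 0.032), and Csnk1e was at -0.13 (adjusted p = 0.15). Gsk3b, another kinase of clock proteins, rose by 0.29 (adjusted p = 0.036), a value of 0.04 with the length and base composition correction. The deubiquitinase gene Usp2, an E-box output, was at 2681, 2487 and 2321 in air and at 1817, 1740.1 and 1799 in hyperoxia. It fell in every hyperoxia library relative to every air library, with a log2 fold change of -0.48 (SE 0.08, limma adjusted p = 0.0020), like Per1 and Per2. The ubiquitin ligase genes Fbxl21, Btrc and Fbxw11, whose products mark CRY or PER for degradation, had values of 0.38, 0.08 and 0.07 and did not pass the test. Of the remaining outputs, Nampt, which encodes an enzyme of NAD synthesis, rose by 0.32 (adjusted p = 0.0059), a value of 0.16 that was not called with the length and base composition correction (adjusted p = 0.096). Wee1, a cell cycle kinase gene, rose by 0.44 with overlapping groups (adjusted p = 0.0498) and was called in 8 of the 16 alternatives. Noct was at -0.05, and at -0.33 (adjusted p = 0.017) with the correction.

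**Figure D4:**
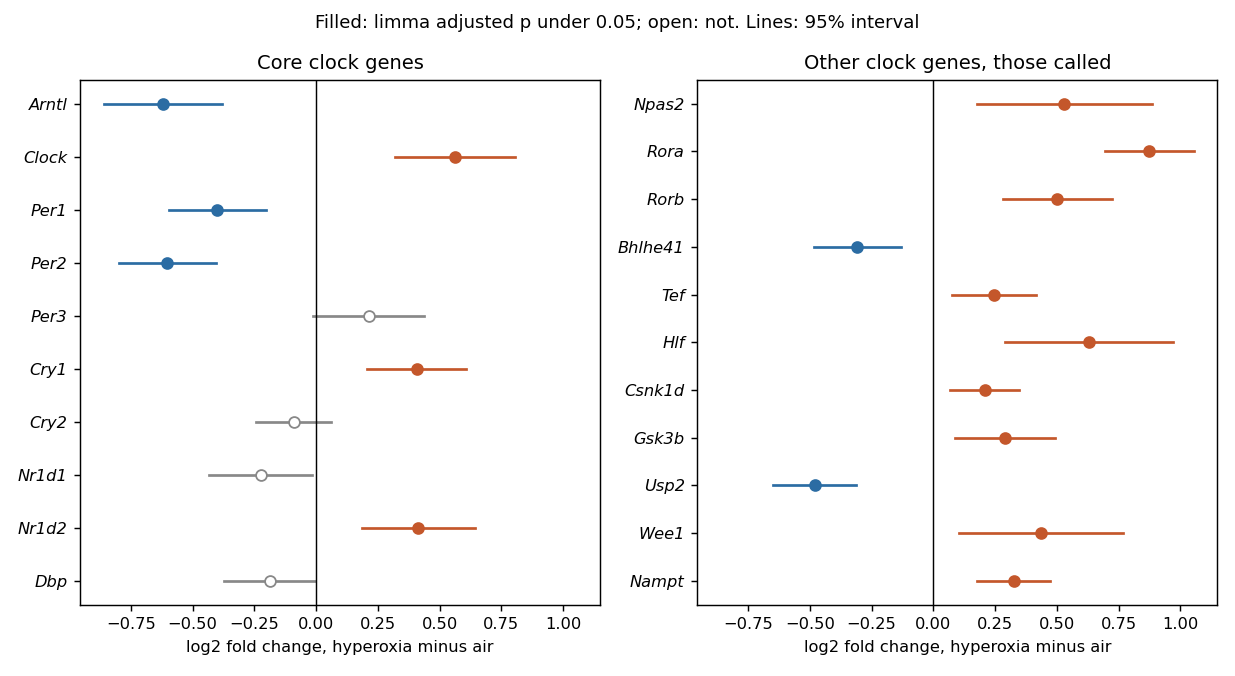
Log2 fold change (horizontal axis, hyperoxia minus air) with the 95% interval for the 10 clock genes (left) and the 11 called of the 22 further clock genes (right), filled where the limma adjusted p was under 0.05. On the left 3 genes are filled on each side of 0, and on the right, which shows called genes only, 9 lie above 0 and 2 below it.

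Since Per1 and Per2 also respond to neuronal activity, 12 immediate early genes were read beside them. Of these, 8 were called, against 30.5% of all genes tested, 7 lower (15.6% of all genes) and 1 higher (14.9%), with a median fold change of -0.70 on the log2 scale. Arc, a synaptic immediate early gene, was at 5294, 5074 and 5436 in the libraries named air and at 1850.1, 1646 and 1574 in those named hyperoxia, a log2 fold change of -1.64 (limma adjusted p = 4.7e-05), and Npas4 was at -1.04 (adjusted p = 9.0e-04). Sik1, a kinase gene that limits light resetting of the clock, was the one that rose, by 0.70 (adjusted p = 0.0018). Among the 7 called lower the value nearest to 0 was that of Junb, -0.63, beside -0.40 for Per1 and -0.60 for Per2. The 4 not called were nearer to 0: Fos at -0.31, Dusp1 at -0.09, Ier2 at -0.08 and Btg2 at 0.11. The part of neuronal activity in the Per1 and Per2 values was not tested.

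Of 10 glucocorticoid response genes, 4 were called, 2 higher and 2 lower, with a median of 0.14 on the log2 scale, a count near the 30.5% of all genes tested. Cdkn1a rose by 0.47 (adjusted p = 0.011) and Pdk4 by 0.46 (adjusted p = 0.012), while Errfi1 was at -0.35 (adjusted p = 0.0084) and Fkbp5, a widely used reporter of the receptor, at -0.27 (adjusted p = 0.024). Without air library 2, 2 of the 10 were called. Per1 was lower, as was Fkbp5, and the list did not move in 1 direction. The part of glucocorticoids in the Per1 value was not tested.

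Likeness to a clock gene was measured as Pearson's r of log2 values over the 6 libraries, which mixes the difference between groups with the spread inside them, and is given as a description. Gm14827 at r = 0.998, Gm43457 at 0.997 and Adat1 at 0.996 were most like Arntl, and 403 of 17777 other tested genes reached 0.95. For Nr1d1 the nearest were Spry2 at 0.994, Rell2 at 0.993 and Gm44210 at 0.990, with 37 genes at 0.95 or above. For Dbp they were Trim34a at 0.988, Casq1 at 0.986 and Htr1a at 0.984, with 38 genes at 0.95 or above. No other clock gene was among these 9.

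The counts of cell type markers called stand beside the 30.5% of all genes tested. Hippocampal principal neuron markers had 4 of 10 called, all lower, and oligodendrocyte markers 6 of 7, all lower, with summed levels of 211891 to 322603 in air and 145053 to 177755 in hyperoxia. Endothelial markers had 3 of 6 called higher and 1 lower, microglial markers 2 of 6 higher, astrocyte markers 2 of 7 higher and 2 lower, and interneuron markers 1 of 6 higher and 1 lower. Choroid plexus markers had 1 of 6 tested called, which was higher, and summed to 546 to 1421 in air and to 491 to 8179 in hyperoxia, with 8179 in hyperoxia library 3. In that library Clock was the highest of its group, and Arntl, Per1, Per2, Cry1 and Nr1d2 lay between the other libraries. No listed marker was at 0 in any library. The part of these cells in the clock gene values was not tested.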

How the data were processed

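Strand-specific mRNA libraries (Agilent SureSelect kit) of 6 left hippocampi were sequenced on an Illumina NextSeq. The submitters' processing notes name FastQC, STAR 2.5.3a, HTSeq and DESeq2. The sources used here do not give the genome build, the annotation or the strand setting of the counting. The authors deposited normalized values, a signal equal to read counts divided by a size factor for each library, and 100% of values were whole reads (within 0.01) once multiplied back. A further deposited table holds the authors' own fold changes and p-values and was not used. Columns were assigned to air or hyperoxia by their names, and library numbers name columns, not animals. The names were not checked against the authors' fold changes or any other source, and all directions given here rest on them.

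Genes with a mean of at least 10 were tested with limma 3.58.1 (R 4.3.3, mean-variance trend, two-sided) on log2(value + 1), a scale that understates the change of low genes, and adjusted by Benjamini-Hochberg, with calls at an adjusted p under 0.05. The p-values rest on the spread among 3 and 3 animals, with the variance of each gene drawn toward a trend fitted over all genes tested. An exact permutation test of 3 against 3 cannot go below 0.1 and was not run. Alternatives were pseudocounts of 0.5 and 5, no filter or a mean of at least 50, quantile and TMM scaling, limma without the trend, edgeR 4.0.16 and DESeq2 1.42.0 on the recovered reads, a length and GC correction (mgcv 1.9.3), and each library left out. The fits were tested on simulated data. Coordinates and exon overlaps are from GENCODE M21 on GRCm38, which matched 99.68% of gene identifiers, and promoter sequence is from RefSeq on GRCm38.p6 (13 windows for 9 of the 10 genes). Named genes are the 10 clock genes, those of the 22 further clock genes that were called or are described by role (2 that were not called are not reported here by name), genes whose exons overlap a member, the 3 genes most like Arntl, Nr1d1 and Dbp, and the 2 largest changes of each other list described. Junb, Sik1, Tcf7l2, Errfi1 and Fkbp5 were chosen after their values were seen. So were the thalamus markers and immediate early genes named as not called. The members and lists were chosen with earlier results of these data known.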

Additional observations from a re-analysis of the deposited data

How the results depend on the processing

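Over the 16 alternatives no clock gene of the 10 changed direction, and 5 to 7 of the 10 were called. Of 160 values, 155 kept their side of the threshold. The exceptions were Nr1d2, which lost its call in limma without the trend (adjusted p = 0.054) and without air library 1, air library 3 or hyperoxia library 1, and Per3, which gained one without hyperoxia library 2. The count of further clock genes called, 11 of 22, was 5 in limma without the trend, 7 with the length and GC correction and 4 to 12 with 1 library left out. The 5425 genes called in all became 3048 to 7756 with 1 library left out (3048 without air library 1, 3087 without air library 2, 3378 without hyperoxia library 1), 5501 in edgeR and 5611 in DESeq2. Immediate early genes called ranged from 7 to 8 and glucocorticoid response genes from 2 to 6 with 1 library left out. The cause of these shifts was not tested. No paired analysis was possible because nothing ties an air animal to a hyperoxia animal. The same column numbers occur in both groups but do not name animals, and litters are not given. With 3 libraries a group, the 95% intervals of the genes not called still reached 0.44 for Per3, -0.24 for Cry2, -0.43 for Nr1d1 and -0.37 for Dbp on the log2 scale.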
